A study of Homo sapiens with 4 samples.

Results

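The S100 genes S100A7, S100A7A, S100A8, S100A9 and S100A12 were followed by line, treatment, cell state and pool in single cells of human breast tumors grown in mice. They are 5 of the 4000 genes in the deposited expression tables, and they were picked by name with their levels in these data already known, so those levels are given as a description and carry no test. S100 proteins are small calcium-binding proteins. S100A8 and S100A9 pair as calprotectin, which binds zinc and manganese ions and starves microbes of them, and which signals through TLR4 and RAGE when it leaves the cell. S100A12 is the calgranulin best known from neutrophils, S100A7 is psoriasin and S100A7A is its near copy koebnerisin, both first known from inflamed skin, and epithelial cells switch the whole set on in inflammation, in wounds and in some breast tumors.

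The tumors came from SUM149, a human triple negative inflammatory breast cancer line. Cells infected with lentivirus carrying a control hairpin (shCON) or a hairpin against CD9 (shCD9) were injected into the mammary fat pads of NSG mice, immunodeficient hosts 6 weeks of age that keep their own stromal cells and defective myeloid cells. From day 14 after injection the animals, 8 a group by the labels and fewer by the study's methods, received vehicle or JQ1, a bromodomain inhibitor, at 25 mg/kg daily for 30 days. Tumor cells carrying hashtag antibodies were sequenced as 3′ libraries in 4 pools.

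The 4 groups were thus shCON with vehicle (2272 cells), shCON with JQ1 (3794 cells), shCD9 with vehicle (2454 cells) and shCD9 with JQ1 (5199 cells), 13719 cells in all. Pools 1 and 2 held shCD9 cells and pools 3 and 4 shCON cells, each with both treatments, so that line and pool cannot be told apart, whereas the treatments could be compared inside every pool. The sample labels give JQ1 for all 4 pools, and the treatment of a cell was taken from the deposited cell tables. These tables name the line and treatment of a cell but no animal, so each group counts as 1 sample and no p-value is given. The 95% intervals below cover counting error only, and they leave out the difference between animals. Those of levels and ratios also leave out the spread between cells. CD9 itself was not analysed here.

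Depth differed between the lines, with a median of 18645.5 and 17831.5 UMIs a cell in shCON tumors (vehicle, JQ1) and 13609 and 12605 in shCD9 tumors, and 15 cell barcodes occurred in more than 1 pool. Of 8 epithelial markers, 7 were in the tables, and their summed level ran from 6709 to 8726 CPM (UMIs of a gene per 1000000 UMIs of the same cells) over the 4 groups. Each cell also carries a state that the study assigned with scPred, a classifier trained on cultured SUM149 cells. The states are SCLED (stem cell-like and embryonic diapause), the transitional cluster 9, the resistant clusters cR, and unassigned. The deposited label of the cells called SCLED here is 4_2. The study first gave the name SCLED to another part of its cluster 4, and later used it for cluster 4.

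All 5 genes lie on chromosome 1, inside 102798 bases of the epidermal differentiation complex, a run of genes for skin barrier proteins. By GENCODE on GRCh38, S100A9 spans 153357854 to 153361023 on the plus strand, S100A12 153373711 to 153375621 on the minus strand, S100A8 153390032 to 153391073 on the minus strand, S100A7A 153416520 to 153423222 on the plus strand and S100A7 153457744 to 153460651 on the minus strand. No member overlapped another, and the gaps between neighbours ran from 12687 to 34521 bases.

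Because the levels below moved together in most groups, the promoters are shown for comparison. Each is the RefSeq sequence on GRCh38.p14 from 250 bases before the start of the gene to 50 bases after it, 5′ to 3′ on the strand of the gene, and all 5 genes matched an entry. They are chr1:153357604-153357903 (S100A9), chr1:153391024-153391323 (S100A8), chr1:153375572-153375871 (S100A12), chr1:153460602-153460901 (S100A7) and chr1:153416270-153416569 (S100A7A). Capitals mark TATAAA, the core of the TATA box.
S100A9: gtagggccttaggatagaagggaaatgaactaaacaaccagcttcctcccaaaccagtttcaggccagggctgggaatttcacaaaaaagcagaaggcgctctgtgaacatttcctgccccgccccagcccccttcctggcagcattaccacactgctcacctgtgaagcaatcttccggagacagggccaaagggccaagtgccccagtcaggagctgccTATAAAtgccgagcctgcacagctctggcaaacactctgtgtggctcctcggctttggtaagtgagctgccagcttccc
S100A8: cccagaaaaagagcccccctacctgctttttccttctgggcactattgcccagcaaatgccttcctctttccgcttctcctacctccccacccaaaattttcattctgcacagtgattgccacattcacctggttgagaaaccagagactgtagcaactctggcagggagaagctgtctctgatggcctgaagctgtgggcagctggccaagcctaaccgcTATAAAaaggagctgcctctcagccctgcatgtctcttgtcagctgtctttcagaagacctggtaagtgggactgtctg
S100A12: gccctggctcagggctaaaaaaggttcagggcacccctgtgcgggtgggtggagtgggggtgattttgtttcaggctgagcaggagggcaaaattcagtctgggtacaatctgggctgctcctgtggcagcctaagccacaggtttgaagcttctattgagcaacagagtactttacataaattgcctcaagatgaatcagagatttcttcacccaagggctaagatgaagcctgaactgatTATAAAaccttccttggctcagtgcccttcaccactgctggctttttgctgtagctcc
S100A7: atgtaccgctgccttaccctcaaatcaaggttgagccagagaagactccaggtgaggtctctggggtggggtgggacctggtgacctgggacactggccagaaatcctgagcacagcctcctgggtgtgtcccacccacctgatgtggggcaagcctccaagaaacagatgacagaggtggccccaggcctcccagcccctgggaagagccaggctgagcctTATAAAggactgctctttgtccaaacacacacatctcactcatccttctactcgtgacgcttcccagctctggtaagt
S100A7A: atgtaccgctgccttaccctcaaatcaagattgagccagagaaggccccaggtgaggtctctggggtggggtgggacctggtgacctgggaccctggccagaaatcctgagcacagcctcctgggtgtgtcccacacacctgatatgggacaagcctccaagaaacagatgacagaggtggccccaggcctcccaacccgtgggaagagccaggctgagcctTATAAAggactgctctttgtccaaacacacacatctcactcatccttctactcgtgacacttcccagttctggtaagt
TATAAA stood within 45 bases before the start, on the strand of the gene, in 5 of 5 members and in 2.79% of 27305 promoters. Its first base lay 28 or 29 bases before the start in S100A9, S100A8, S100A7 and S100A7A, and 8 bases before it in S100A12. The AP-1 letters TGANTCA and the C/EBP letters TTGCNNAA were found once each in the S100A12 promoter and in no other member, on either strand, against 7.76% and 10.6% of all promoters. The STAT letters TTCNNNGAA, held by 7.88% of all promoters on either strand, were in none of the 5. The motif searches on both strands counted overlapping matches, and a match or its absence describes these letters in this window only. S100A7 and S100A7A were identical at 289 of 300 promoter bases (96.3%).

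The first question was whether JQ1 changed the level of these genes in tumors with the control hairpin. S100A9, the larger calprotectin subunit, stood at 1507 CPM in shCON tumors given vehicle (1470 and 1544 in pools 3 and 4) and at 4171 CPM in those given JQ1 (4386 and 3959). It was thus higher with JQ1 by 1.47 on the log2 scale, and by 1.58 and 1.36 inside the pools. S100A8, its partner, went from 587 CPM (513 and 659) to 1978 CPM (2073 and 1885), a log2 ratio of 1.75, with 2.01 and 1.52 inside the pools. For both subunits either JQ1 value lay above either vehicle value.

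S100A12, a ligand of the receptor RAGE, was scarce, at 1.66 CPM (1.46 and 1.85 by pool) with vehicle and 6.39 CPM (6.15 and 6.62) with JQ1. Its log2 ratio was 1.95 with an interval of 1.61 to 2.30. S100A7, an antimicrobial protein of skin, went from 317 CPM (257 and 375) to 967 CPM (1023 and 911), a log2 ratio of 1.61. S100A7A was the scarcer copy, at 2.92 CPM (1.86 and 3.94) and 15.1 CPM (19.2 and 11.04), with a log2 ratio of 2.37 and an interval of 2.12 to 2.63. The pools did not overlap between treatments for any of these 3 genes, although the ratio of S100A7A was 3.36 in pool 3 and 1.49 in pool 4. Of the 2625 genes with at least 50 UMIs over both groups, 146 (5.56%) were at least 2-fold higher and 55 (2.10%) at least 2-fold lower, and the members were 5 of the former and 0 of the latter. They ranked from 31 (S100A7A) to 93 (S100A9) of 2625 by log2 ratio.

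**Figure D1:**
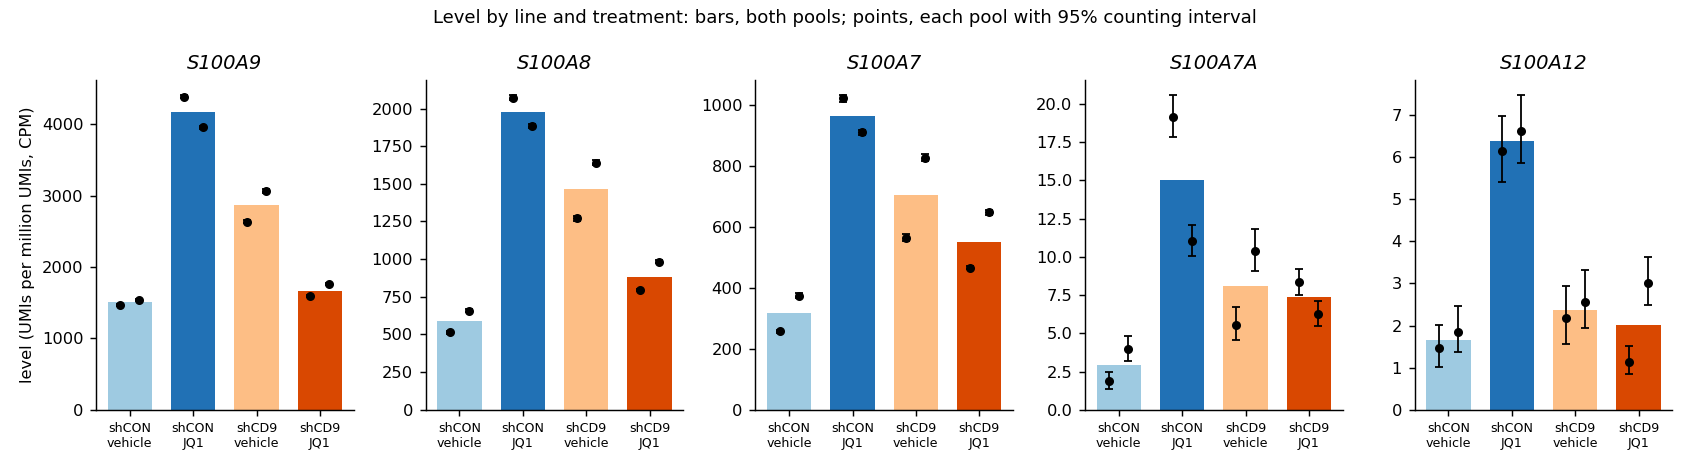
Level of each gene in CPM (y axis, from 0, a separate scale per panel) in the 4 groups of line and treatment. Bars give the value over both pools of a group and points each pool with its 95% counting interval. For all 5 genes both shCON pools with JQ1 lie above both shCON pools with vehicle.

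In tumors with the CD9 hairpin the same comparison gave values of the other sign. S100A9 was at 2865 CPM with vehicle (2638 and 3066 in pools 1 and 2) and 1671 CPM with JQ1 (1597 and 1757), a log2 ratio of -0.78, and of -0.72 and -0.80 inside the pools. S100A8 was at 1467 CPM (1271 and 1640) and 882 CPM (797 and 982), a log2 ratio of -0.73. Both calprotectin subunits were lower with JQ1 in either pool, by less than 2-fold.

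S100A7 was at 705 CPM (566 and 828) with vehicle and 551 CPM (467 and 649) with JQ1 in shCD9 tumors, and its pool values overlapped between the treatments. Inside the pools its log2 ratios were -0.28 and -0.35. S100A7A was at 8.12 CPM (5.56 and 10.4) and 7.37 CPM (8.33 and 6.25), with an interval of the log2 ratio from -0.33 to 0.06. S100A12 was at 2.38 CPM (2.17 and 2.56) and 2.01 CPM (1.15 and 3.02), with an interval from -0.61 to 0.13. For S100A7A and S100A12 the pools went opposite ways, at 0.58 and -0.74 for S100A7A and at -0.92 and 0.24 for S100A12. No member was past 2-fold in shCD9 tumors, where 32 of 2641 genes (1.21%) were at least 2-fold higher with JQ1 and 67 (2.54%) at least 2-fold lower.

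Between the lines the order of the levels turned over with treatment. With vehicle, shCD9 cells held more S100A9 (log2 ratio of shCD9 to shCON 0.93), S100A8 (1.32), S100A12 (0.52), S100A7 (1.16) and S100A7A (1.48) than shCON cells. The 3 members at least 2-fold higher were S100A8, S100A7 and S100A7A, in a comparison where 299 of 2542 genes (11.8%) were at least 2-fold higher and 107 (4.21%) lower. With JQ1, shCD9 cells held less S100A9 (-1.32), S100A8 (-1.17), S100A12 (-1.67), S100A7 (-0.81) and S100A7A (-1.03). The 4 members other than S100A7 were then at least 2-fold lower, against 305 of 2752 genes (11.1%), while 473 genes (17.2%) were at least 2-fold higher and held no member. These comparisons share groups with those of JQ1 against vehicle, and each sets pools of 1 line against pools of the other.

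**Figure D2:**
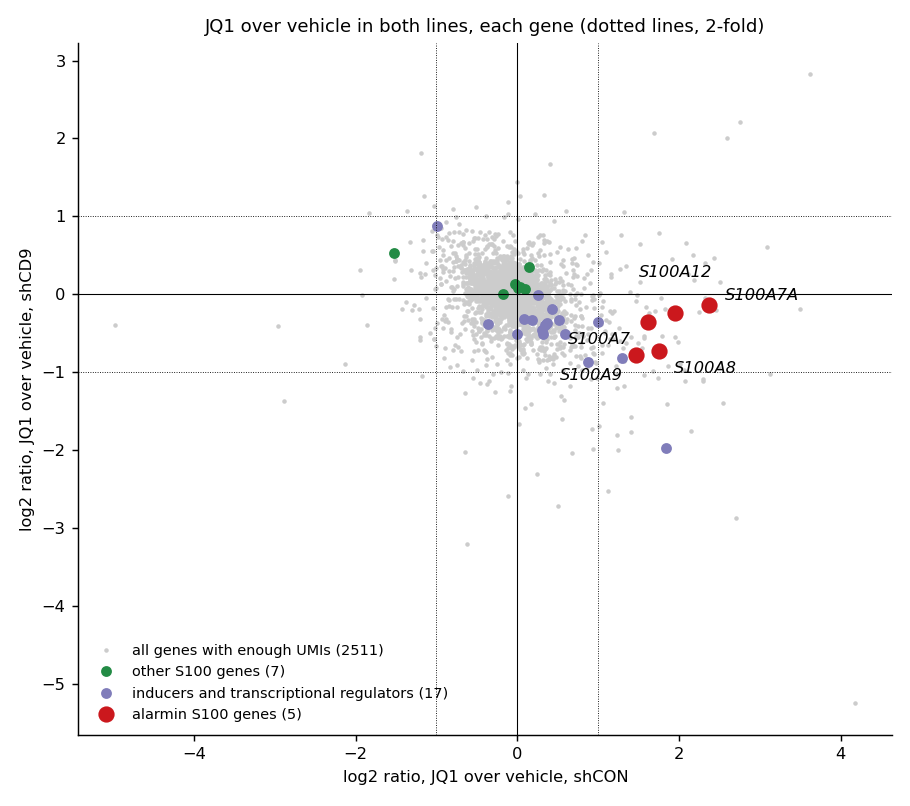
Log2 ratio of JQ1 to vehicle in shCON cells (x axis) and in shCD9 cells (y axis) for the 2511 genes with at least 50 UMIs in both comparisons (gray points), with the 5 alarmin genes, the other S100 genes and the list of inducers and regulators marked. All 5 alarmin genes lie right of 0 and below 0, as do 78 of the 105 plotted genes that were at least 2-fold higher in shCON cells.

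The states differed far more than the groups did. The state labels were made from the expression of these same cells, so the levels by state are a description. Over all pools cluster 9 cells held 29920 CPM of S100A9, unassigned cells 2635, SCLED cells 1567 and cR cells 865. S100A8 stood at 17300 CPM in cluster 9, 1166 in unassigned, 900 in SCLED and 271 in cR cells. S100A7 showed the same order, with 8476, 584.5, 417 and 262 CPM.

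The scarce members were also highest in cluster 9. S100A12 was at 68.95 CPM there, against 2.55 in unassigned, 1.28 in SCLED and 0.38 in cR cells. S100A7A was at 187 CPM in cluster 9, 6.28 in SCLED, 5.79 in unassigned and 0.99 in cR cells, so that its SCLED and unassigned levels lay close together. Against all other cells the log2 ratios of cluster 9 were 3.97 for S100A9, 4.35 for S100A8, 5.37 for S100A12, 4.21 for S100A7 and 5.41 for S100A7A. In that comparison 613 of 2910 genes (21.1%) were at least 2-fold higher, all 5 members among them, at ranks 22 (S100A7A), 23 (S100A12), 51 (S100A8), 58 (S100A7) and 70 (S100A9).

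**Figure D3:**
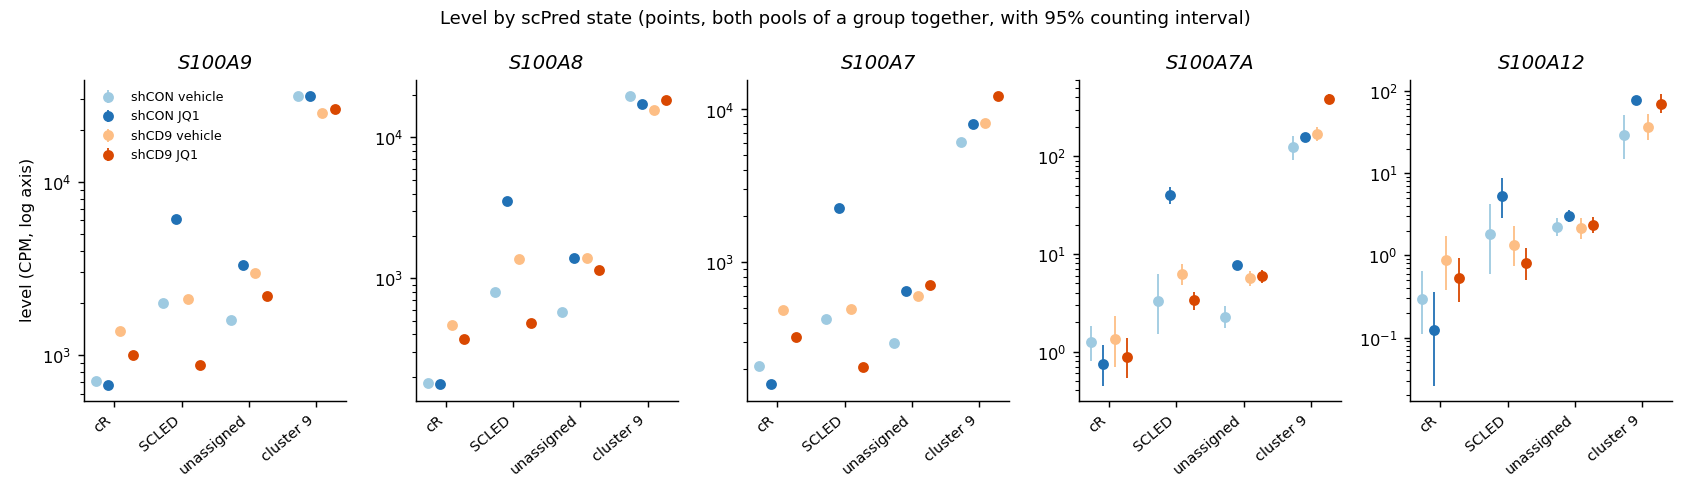
Level of each gene in CPM (log axis) by scPred state, with 1 point for each of the 4 groups. Cluster 9 cells hold the highest level of all 5 genes in every group.

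Inside cluster 9 the S100A9 level hardly differed between treatments. It was 31380 CPM with vehicle and 31390 CPM with JQ1 in shCON tumors, and 25020 and 26190 CPM in shCD9 tumors, log2 ratios of 0.00 and 0.07. The 22 cluster 9 cells of shCON tumors given vehicle were 13 in pool 3 and 9 in pool 4, with 25960 and 36960 CPM, and the 100 and 97 such cells given JQ1 held 26980 and 35590 CPM, so the pools differed more than the treatments. S100A8 in cluster 9 differed between treatments by 0.14 and -0.44 on the log2 scale in the shCON pools and by 0.41 and 0.14 in the shCD9 pools. The other members differed more inside cluster 9. S100A12 was higher in both shCON pools (log2 ratios 1.66 and 1.28, on 12 UMIs with vehicle in all) and went opposite ways in the shCD9 pools (-1.47 and 2.23). S100A7 and S100A7A were higher in both shCD9 pools, at 0.77 and 0.55 for S100A7 and 1.42 and 0.85 for S100A7A. For S100A7 this is the reverse of its sign over all shCD9 cells. Over all shCD9 cells S100A7A had no settled sign, with 0.58 in pool 1 and -0.74 in pool 2. Both genes went opposite ways in the shCON pools. Cluster 9 made up 0.968% of shCON cells with vehicle and 5.19% with JQ1 (1.20% to 5.38% in pool 3, 0.757% to 5.01% in pool 4). Its share of shCD9 cells was 2.12% and 1.10% (1.41% to 1.20% in pool 1, 2.66% to 0.983% in pool 2).

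S100A9 in cR cells was 715 CPM with vehicle and 674 CPM with JQ1 in shCON tumors, and 1374 and 999 CPM in shCD9 tumors. The 2 shCON pools went opposite ways, with log2 ratios of 0.12 and -0.33, while both shCD9 pools were lower with JQ1, by 0.55 and 0.35 on the log2 scale. Among unassigned cells S100A9 was 1593 and 3326 CPM in shCON tumors and 2991 and 2205 CPM in shCD9 tumors. The unassigned cells thus showed the direction of the whole group in both lines, with log2 ratios of 1.37 and 0.69 in the shCON pools and -0.48 and -0.40 in the shCD9 pools.

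For S100A9, S100A8 and S100A7, SCLED cells showed the widest gap between the lines in their response to JQ1. In shCON tumors their S100A9 was 2009 CPM with vehicle (2097 and 1916 by pool) and 6078 CPM with JQ1 (5355 and 7005). In shCD9 tumors it was 2102 CPM (2068 and 2133) and 881 CPM (788 and 993). With vehicle the SCLED cells of the lines therefore stood near each other, and with JQ1 all shCON pools lay above all shCD9 pools. The log2 ratios of JQ1 to vehicle in shCON SCLED cells were 1.60 for S100A9, 2.13 for S100A8 and 2.41 for S100A7, and in shCD9 SCLED cells -1.25, -1.51 and -1.25. The shCON values rest on 130 SCLED cells with vehicle and 129 with JQ1, and the shCD9 values on 555 and 1630. The shCON ratio of S100A7 was 1.55 in pool 3 and 4.02 in pool 4, on vehicle levels of 675 and 164 CPM. S100A7 was detected in 48 of these shCON cells under either treatment. Only 9 shCON SCLED cells with vehicle and 10 with JQ1 held at least 10000 CPM of S100A9. After thinning, S100A9 was detected in 63.1% of all shCON SCLED cells with vehicle and 58.1% of those with JQ1. For S100A7A, 5 of the 106 UMIs of shCON SCLED cells given JQ1 came from pool 4 and all others from pool 3.

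To see which cells carried the difference between treatments, the UMIs of each state were divided by all UMIs of its group. In shCON tumors S100A9 was higher by 2663 CPM with JQ1, and cluster 9 cells carried 55.5% of that difference and unassigned cells 44.2%. SCLED cells carried 3.45% and cR cells -3.18%. Cluster 9 held 17.1% of the S100A9 UMIs of shCON cells with vehicle and 41.6% with JQ1, while its share of all UMIs went from 0.823% to 5.53%. The difference in S100A8 (1391 CPM) was carried to 56.7% by cluster 9 and to 39.5% by unassigned cells, that in S100A7 (650 CPM) to 60.7% and 36.9%, that in S100A7A (12.2 CPM) to 64.1% and 28.8%, and that in S100A12 (4.73 CPM) to 86.6% and 13.5%.

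The shCD9 difference was spread otherwise. S100A9 was lower by 1194 CPM with JQ1, of which unassigned cells carried 59.1%, cluster 9 20.3%, SCLED 18.9% and cR 1.69%. For S100A8, lower by 584 CPM, the shares were 47.6% in unassigned, 30.2% in SCLED and 22.5% in cluster 9 cells. SCLED cells made up 22.6% of shCD9 cells with vehicle and 31.4% with JQ1, and 5.72% and 3.40% of shCON cells.

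**Figure D4:**
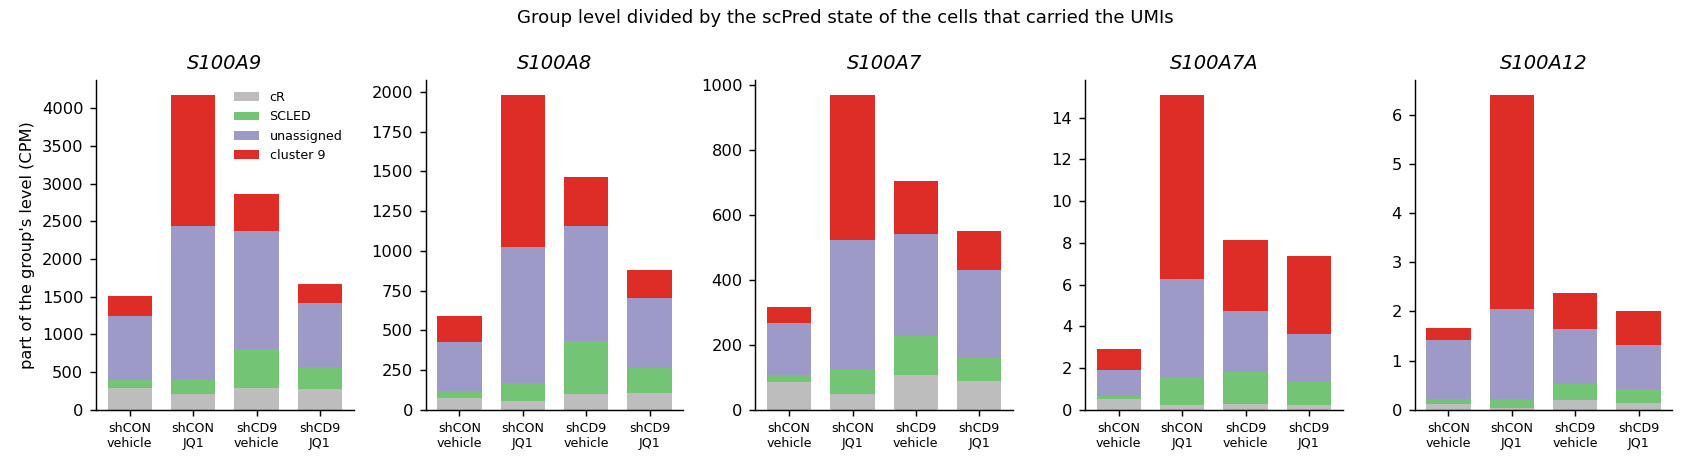
UMIs of each gene in CPM of the whole group, stacked by the scPred state of the cells that carried them (y axis from 0, a separate scale per panel), for the 4 groups. In shCON tumors given JQ1, cluster 9 (1737 CPM) and unassigned cells (2029 CPM) carried most of the 4171 CPM of S100A9.

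When the 4 states were given the same weight in every group, from their shares of all 13719 cells, the shCON log2 ratios of JQ1 to vehicle were 0.80 for S100A9, 0.90 for S100A8, 0.97 for S100A12, 1.15 for S100A7 and 1.56 for S100A7A, and 2 of 5 members stayed past 2-fold. In shCD9 tumors the ratios then were -0.40 for S100A9, -0.26 for S100A8, 0.36 for S100A12, 0.08 for S100A7 and 0.64 for S100A7A. Without the cluster 9 cells, an alternative added after the data were seen, the shCON ratios were 1.03 for S100A9, 1.35 for S100A8, 0.60 for S100A12, 1.04 for S100A7 and 1.79 for S100A7A.

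Within every group a small fraction of cells held most of the UMIs. The 1% of cells with most of a gene carried 32.8% of all S100A9 UMIs, 40.5% of S100A8, 69.8% of S100A12, 49.8% of S100A7 and 86.3% of S100A7A. The top 10% carried 85.2%, 92.5% and 96.4% of the UMIs of S100A9, S100A8 and S100A7. Single cells reached 4541 UMIs of S100A9, 2675 of S100A8, 2982 of S100A7, 80 of S100A12 and 77 of S100A7A. After every cell was thinned to 4000 UMIs, the ratio of variance to mean was 91.4 for S100A9, 72.0 for S100A8 and 60.8 for S100A7, against a median of 1.28 over 2141 genes. Those values ranked 3, 4 and 7, and S100A7A (5.04) and S100A12 (4.07) ranked 140 and 178.

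In shCON tumors the difference between treatments was in the upper part of the cells, and in shCD9 tumors it ran through the middle of them as well. The median cell held 143 CPM of S100A9 in shCON tumors under either treatment, and the cell at the upper quartile 621 CPM with vehicle and 1010.0 CPM with JQ1. In shCD9 tumors the median was 165 CPM with vehicle and 89.0 CPM with JQ1, and the upper quartile 1307 and 471 CPM. Cells with at least 10000 CPM of S100A9 were 3.21% of shCON cells with vehicle (interval 2.53% to 4.02%; pools 2.77% and 3.62%) and 9.01% with JQ1 (8.12% to 9.97%; pools 10.3% and 7.80%). In shCD9 tumors they were 6.52% with vehicle (pools 5.65% and 7.18%) and 3.89% with JQ1 (pools 3.85% and 3.93%). The pools of the treatments did not overlap in either line. Of the 777 such cells in all, 416 (53.5%) were unassigned, 239 (30.8%) cluster 9, 69 SCLED and 53 cR. They included 72.9% of cluster 9 cells, 6.32% of unassigned, 2.82% of SCLED and 1.21% of cR cells.

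**Figure D5:**
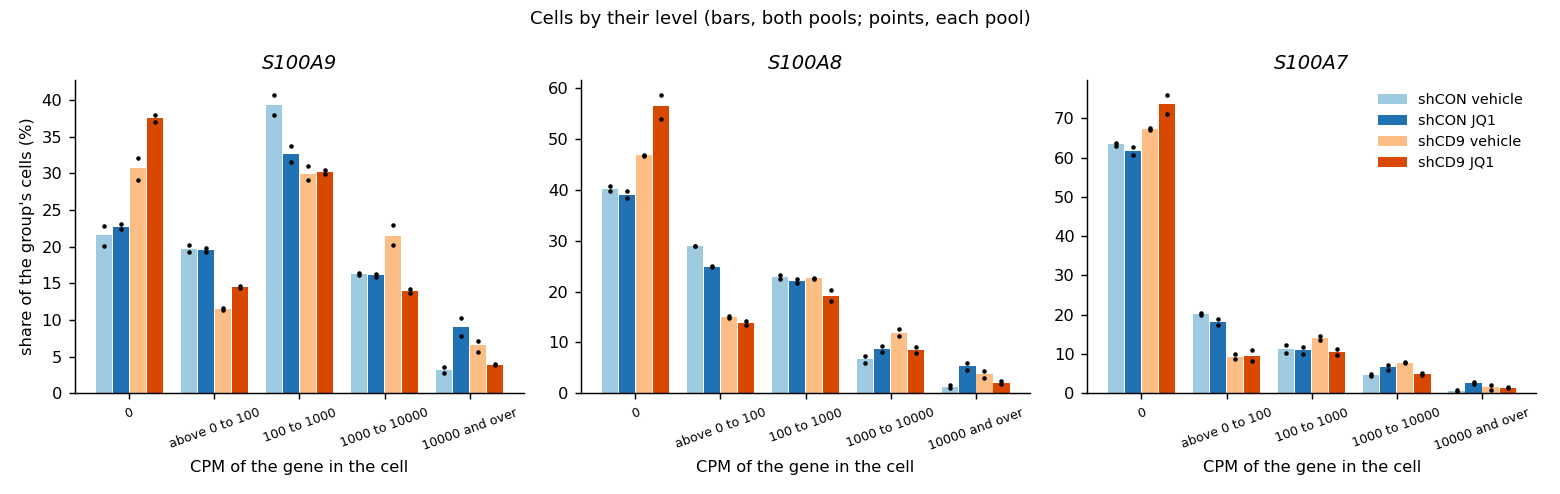
Share of cells (y axis, percent, from 0) in bins of the cell's own level of S100A9, S100A8 and S100A7 in CPM, for the 4 groups. For S100A9 the group with the largest share at 10000 CPM or more is shCON with JQ1, at 9.01% of cells.

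The share of cells with at least 1 UMI told less. S100A9 was detected in 78.5% and 77.3% of shCON cells (vehicle, JQ1) and in 69.2% and 62.4% of shCD9 cells, and after thinning to 4000 UMIs in 49.7%, 51.9%, 53.1% and 41.9%. S100A8 was detected in 59.8%, 60.9%, 53.2% and 43.5% of the cells of these groups, and in 29.2%, 34.0%, 34.6% and 27.1% after thinning. The vehicle cells of shCD9 tumors stood below the shCON cells before thinning and above them after it, so the unthinned gap moved with the depth of the cells. The cells were kept by the study as human tumor cells and carry no cell type labels, so no cell type that should lack the genes was at hand to give the background from free RNA. The share with S100A9 after thinning ran from 28.5% in shCD9 SCLED cells with JQ1 to 100% in the 22 cluster 9 cells of shCON tumors with vehicle.

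S100A7 was found in 36.7%, 38.3%, 32.8% and 26.4% of cells, and in 16.7%, 19.6%, 21.2% and 15.9% after thinning. S100A7A was found in 1.85%, 4.03%, 2.61% and 2.08%, and S100A12 in 2.11%, 4.98%, 2.85% and 1.75%, in the same order of groups. After thinning these 2 genes were seen in at most 2.16% and 1.63% of the cells of a group, both in shCON with JQ1.

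The cells with a scarce member were mostly cells rich in calprotectin. S100A12 was found in 398 cells, of which 297 (74.6%) were in the top 10% by S100A9 and 4 had no S100A9 UMI. Their median S100A9 level was 16390 CPM, against 115 CPM in cells without S100A12, and their median depth 24638 against 14863 UMIs. S100A7A was found in 367 cells, of which 270 (73.6%) were in that top class, with median S100A9 levels of 16970 and 116 CPM and median depths of 21154 and 14938 UMIs. Cluster 9 held 115 of the 398 and 102 of the 367 cells. Both genes were seen together in 106 cells.

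Cells rich in S100A8 were mostly rich in S100A9 in each group. The correlation of log2(CPM + 100) over cells was 0.81 over the 2272 shCON cells given vehicle, 0.89 over the 3794 given JQ1, 0.88 over the 2454 shCD9 cells given vehicle and 0.87 over the 5199 given JQ1. For S100A7 and S100A9 it ran from 0.59 to 0.71 over the groups, and for S100A7 and S100A8 from 0.61 to 0.75. Cells of a pool share a library and their depth, so these correlations are a description.

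The balance of the calprotectin subunits differed between states. Per 100 UMIs of S100A9, cR cells held 25.3 and 26.3 UMIs of S100A8 in shCON tumors (vehicle, JQ1) and 34.2 and 37.4 in shCD9 tumors. Cluster 9 cells held 63.1 and 54.8 in shCON tumors and 62.3 and 70.1 in shCD9 tumors. SCLED cells stood above cluster 9 cells in shCON tumors given JQ1 (57.9) and in shCD9 tumors given vehicle (64.85). They stood below cluster 9 cells in shCON tumors given vehicle and in shCD9 tumors given JQ1. Unassigned cells, at 36.1 to 52.0, lay between cR and cluster 9 cells in every group. The cR cells were thus the lowest state in each group, and a high S100A8 share was not particular to cluster 9. The cR value was lower than that of cluster 9 in all 8 pairs of pool and treatment, from 19.1 to 43.4 against 51.5 to 79.1. The number of S100A7A UMIs per 100 of S100A7 was 0.47 to 0.59 in cR cells and 1.98 to 2.01 in cluster 9 cells of shCON tumors, and 0.27 and 2.08 to 3.13 in those of shCD9 tumors. The cR values rest on 25 and 18 UMIs of S100A7A in shCON tumors (vehicle, JQ1) and 12 and 20 in shCD9 tumors. S100A7A was thus no fixed share of its near copy. The longest protein-coding transcripts of the pair, 442 bases for S100A7 and 4280 for S100A7A, shared no window of 90 bases and at most 80 bases in a row. Whether reads of one copy were counted for the other was not tested.

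The genes most like each member were found by Pearson correlation of log2(CPM + 10) over 31 profiles of pool, treatment and state, among 2136 genes. Profiles of a pool share a library, and cluster 9 stands at the top of each, so the likeness is a description. For S100A9 they were CDKN1A (0.976), which arrests the cell cycle, NAMPT (0.971), an enzyme of NAD synthesis, SOD2 (0.970), the mitochondrial superoxide dismutase, the neutrophil chemokine CXCL8 (0.960) and the prostaglandin synthase PTGS2 (0.956). For S100A8 they were the chemokine CCL20 (0.965), CDKN1A (0.963), CXCL8 (0.961), NAMPT (0.957) and SOD2 (0.951), and the members themselves were at 0.988 with each other. CXCL8 stood at 51.1 and 119 CPM in shCON tumors and at 124 and 65.4 CPM in shCD9 tumors, and at 1277 CPM in cluster 9 against 10.6 CPM in cR cells.

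The list for S100A7 was PTGS2 (0.946), the survival factor BCL2A1 (0.922), CDKN1A (0.919), the repressor PRDM1 (0.910) and CXCL8 (0.909). That for S100A7A was PTGS2 (0.931), the repressor BCL6 (0.924), the secreted glycoprotein CHI3L1 (0.915), TMEM132A (0.913) and CYP24A1 (0.911), which breaks down active vitamin D. That for S100A12 was FAM83A (0.937), the sulfotransferase SULT2B1 (0.926), the calcium pump gene ATP2C2 (0.916), PRDM1 (0.914) and CDKN1A (0.897). CDKN1A was in 4 of the 5 lists. Its level was 39.3 and 58.1 CPM in shCON tumors and 49.4 and 35.9 CPM in shCD9 tumors.

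Of the 7 other S100 genes of the tables, none was at least 2-fold higher with JQ1 in shCON tumors and 1 was lower (S100B, -1.52), with a median log2 ratio of 0.01 against -0.04 over all genes tested. In shCD9 tumors none was past 2-fold, at a median of 0.10 against -0.01. S100A6, a gene of growing cells, was at 4493 and 4813 CPM in shCON tumors and 5408 and 5654 CPM in shCD9 tumors, S100A2 at 4077, 4169, 4500 and 4811 CPM, S100A10, the annexin A2 partner, at 1619, 1582, 1866 and 2039 CPM, and S100P at 1034, 1040, 1440 and 1528 CPM. Over the 31 profiles S100A6 went with S100A9 at a correlation of 0.901, next to 0.887 for S100A7A and 0.876 for S100A12, and like them it was highest in cluster 9, at 8644 CPM against 4650 to 5250 CPM in the other states. For S100A2, S100P and S100A10 the correlation was 0.397, 0.332 and 0.294. Between the lines 2 of the 7 were at least 2-fold higher in shCD9 cells under either treatment, S100A4 (1.30 with vehicle, 1.51 with JQ1) and S100B (1.97 and 4.03). Of all genes tested, 11.8% with vehicle and 17.2% with JQ1 were at least 2-fold higher, and whether the 7 differ from them was not tested.

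The lists that follow are read against the shares of all genes tested that were past 2-fold, as given above: with JQ1, 5.56% higher and 2.10% lower in shCON tumors and 1.21% and 2.54% in shCD9 tumors, and in shCD9 against shCON cells 11.8% and 4.21% with vehicle and 17.2% and 11.1% with JQ1. Of 11 genes for receptors and sensors of these proteins, 5 were in the tables, and the others, TLR4 and AGER among them, were not analysed here. None of the 5 was past 2-fold between treatments in either line, and 1, ALCAM (1.22), was at least 2-fold higher in shCD9 cells with JQ1. CD14, the coreceptor of TLR4, was at 22.3 and 41.4 CPM in shCON tumors and 31.1 and 34.4 CPM in shCD9 tumors. ALCAM, a cell adhesion gene, was at 110.5, 87.6, 171 and 203 CPM in the same order of groups, its relative MCAM at 28.8, 23.7, 25.0 and 22.3 CPM, and the lysosomal gene CD68 at 22.4, 24.1, 21.2 and 17.0 CPM.

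Of 32 genes listed as inducers and regulators of the S100 alarmins, 18 were in the tables. Not all of them are inducers, for the list also holds the feedback inhibitors TNFAIP3, SOCS3 and ZC3H12A. In shCON tumors 4 of 18 were at least 2-fold higher with JQ1, the interleukins IL1A (1.00), IL1B (1.29) and IL6 (1.84) and the cytokine OSM (1.56), and none was lower, with a median of 0.36 against -0.04 over all genes. In shCD9 tumors none of 17 was at least 2-fold higher and 1 was lower (IL6, -1.97), with a median of -0.38, and 1 of the 17 stood above 0. IL1B was at 15.1 and 37.0 CPM in shCON tumors and 54.7 and 31.0 CPM in shCD9 tumors, and at 372 CPM in cluster 9. The members with most UMIs were AREG (-0.37 in shCON, -0.38 in shCD9), a ligand of EGFR, HIF1A (0.08 and -0.31), JUNB (0.00 and -0.51) and EGFR (0.26 and -0.01). With vehicle 5 of 17 were at least 2-fold higher in shCD9 than in shCON cells and 1 lower, and with JQ1 none was higher and 2 were lower, IL6 (-2.91) and OSM (-3.61), a share near the 11.1% of all genes.

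The list of antimicrobial and IL-17 type epithelial response genes had 30 of 35 members in the tables. In shCON tumors 8 of 28 were at least 2-fold higher with JQ1 and 1 lower, with a median of 0.47, and in shCD9 tumors none of 29 was higher and 2 were lower, with a median of -0.10. The 4 with most UMIs were the protease inhibitors SLPI (-0.06 in shCON, 0.32 in shCD9) and PI3 (0.31 and 0.30), the siderophore-binding LCN2 (0.40 and 0.13) and WFDC2 (-0.05 and 0.16), none of them past 2-fold. CSF3, the granulocyte growth factor, was at 2.55 and -1.40, and the defensin DEFB4A at 3.85 in shCON tumors, on 0.02 and 0.86 CPM, with its 1 vehicle UMI set to 3. With JQ1, 3 genes were past 4-fold lower in shCD9 than in shCON cells, CSF3 (-2.28), the cytokine IL19 (-3.84) and DEFB4A (-4.57). DEFB4A stood at 0 CPM in shCD9 cells, with the count set to 3. It had 70 UMIs in all cells and passed the filter only through shCON cells given JQ1, which favours its large ratios. Its place among the 8 higher genes and these 3 is therefore a description. Between the lines 12 of 27 were at least 2-fold higher in shCD9 cells with vehicle and 1 lower, and 9 of 30 higher and 3 lower with JQ1. The lower counts were near the 4.21% and 11.1% of all genes.

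The neighbours in the epidermal differentiation complex that are no S100 genes had 17 of 40 in the tables. In shCON tumors 11 of 15 were at least 2-fold higher with JQ1 and 1, LOR (-2.16), was lower, with a median of 3.36. The small proline-rich envelope genes SPRR2E (1.68 to 20.6 CPM), SPRR1B (4.35 to 14.0 CPM) and SPRR2D (1.64 to 9.90 CPM) were among the 11. Also past 4-fold were CRCT1 (5.57), SPRR2A (5.25), SPRR2G (4.51), SPRR3 (4.37), SPRR1A (3.89), SPRR2F (3.88), LCE3E (3.36) and SPRR2B (2.85), all at 0.28 CPM or less with vehicle. The vehicle counts of CRCT1 and SPRR1A were set to 3. These scarce genes passed the filter of 50 UMIs only through the cells given JQ1, which favours a high ratio. The count of 11 and the median are therefore a description. In shCD9 tumors only 5 had enough UMIs, so their count and that of shCON tumors cover unlike sets. Of these 5, 3 were at least 2-fold higher and none lower, with SPRR2E at 2.83, SPRR1B at 2.08 and SPRR2D at 2.01. These 3 SPRR genes stood above vehicle with JQ1 in both lines, while S100A9, S100A8 and S100A7 stood above it in both shCON pools and below it in both shCD9 pools. With vehicle 3 of 6 were at least 2-fold lower in shCD9 than in shCON cells, among them LCE3D (-4.02, its shCD9 count set to 3), a late envelope gene. With JQ1 11 of 13 were lower, from -1.08 (SPRR1B) to -6.46 (SPRR2A), and 1, PGLYRP4 (1.21), higher. Most of the 13 passed the filter only through shCON cells given JQ1, which favours a low ratio. PGLYRP4, which binds bacterial walls, was at 5.57 and 4.75 CPM in shCON tumors and 7.98 and 10.99 CPM in shCD9 tumors. SPRR2E was at 173 CPM in cluster 9 and at 8.31 CPM or less in the other states.

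Blood neutrophils and monocytes make S100A8, S100A9 and S100A12, so markers of myeloid cells were read beside them. Of 20 markers, 9 were in the tables, and the others, ITGAM and CSF3R among them, were not analysed here. Their summed level was 39.3 and 57.7 CPM in shCON tumors (41.1 to 60.0 in pool 3, 37.6 to 55.5 in pool 4) and 51.1 and 48.2 CPM in shCD9 tumors. By state it was 185 CPM in cluster 9, of which CD14 made up 168, 75.4 in SCLED, 46.0 in unassigned and 30.7 in cR cells. The leukocyte gene PTPRC was at 4.65, 3.93, 2.26 and 1.80 CPM in the 4 groups and at 2.93 CPM in cluster 9. Of the scarce markers, the neutrophil gene FCGR3B (66 UMIs in all cells) was at 3.24 CPM in cluster 9 against 0.14 to 0.20 CPM in the other states, TYROBP was at 0.93 CPM in cluster 9, and CXCR2, with 29 UMIs in all cells, had none there. FCER1G (0.15 CPM against 0.91 to 1.27) and SPI1 (0.93 CPM against 2.33 to 2.67) were lowest in cluster 9. The summed level moved with S100A9 between the shCON treatments through CD14, at 22.3 and 41.4 CPM. There PTPRC, AIF1, FCER1G and CXCR2 were lower with JQ1, and TYROBP, SPI1, FCGR3B and LYZ slightly higher. The summed level and S100A9 were both highest in cluster 9 and lowest in cR cells, while SCLED and unassigned cells stood in opposite order. The part of these markers in the result was not tested. Epithelial markers summed to 6329 CPM in cluster 9. Of 5 fibroblast markers, 4 were in the tables and summed to 58.0 and 53.3 CPM in shCON tumors and 179 and 152 CPM in shCD9 tumors, and of 3 endothelial markers 1 was in them, at under 0.1 CPM in each group. None of 4 lymphocyte markers was in the tables.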

How the data were processed

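Single cells of SUM149 xenografts were measured in 4 pools. The authors counted UMIs against GRCh38 with Cell Ranger 6.0.0 (name and build also in the submitters' processing notes) with introns included, kept cells with human hashtags, more than 4000 UMIs and at most 30% mitochondrial UMIs, removed doublets with Scrublet, scaled each cell to a common total and assigned states with scPred. The deposited values are a signal of this kind for 4000 genes, scaled UMI counts with no log. Genes outside these tables and CD9 were not analysed here.

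Whole UMI counts were recovered from the deposited signal by taking each cell's step and the common total of 15070. All positive values (100%) were whole within 0.05, and the largest distance was 0.00035. Groups, treatments and states came from the deposited cell tables. UMIs were summed per group, and CPM was taken over all UMIs of those cells. Intervals at 95% were exact Poisson (CPM), Clopper-Pearson (shares) and conditional exact binomial (ratios, with a count under 3 set to 3). Genes needed 50 UMIs over both groups of a comparison, and a ratio of at least 2-fold was counted. With 1 sample a group, no test of the counts across samples could be run. Likeness used genes with at least 500 UMIs and profiles of at least 10 cells.

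The members and gene lists were chosen with earlier results of these data known. Named were the 5 members, the 4 genes of a list with most UMIs, those past 4-fold, and the 5 genes most like each member; others named in the text were chosen after their values were seen. On simulated data, 800 cells gave back 100% of counts and totals, and 95.6% of true ratios (2673 genes, JQ1 against vehicle in shCON) lay in their interval. Those ratios were drawn with counting error alone, as the intervals assume. Their coverage therefore does not extend to genes that vary widely between cells, as these members do. Alternatives left out a pool, thinned cells, weighted cells equally, gave every group the same state makeup, or changed the denominator or the filter. Others left out the top 1% of cells, the unassigned cells or cluster 9. Scripts ran in Python 3.11.15, with intervals from scipy 1.17.1, sums from numpy 2.4.6, tables from pandas 2.3.3 and plots from matplotlib 3.10.9. Promoters came from RefSeq and positions from GENCODE.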

Additional observations from a re-analysis of the deposited data

Results flagged for a closer look

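Both shCON pools and both shCD9 pools moved opposite ways under JQ1 for 3 members over all cells. The effect of JQ1 in shCD9 minus that in shCON was -1.97 on the log2 scale for S100A7, -2.49 for S100A8 and -2.25 for S100A9. Among SCLED cells the same difference was -3.66 for S100A7, -3.64 for S100A8 and -2.85 for S100A9. Among unassigned cells it was -1.56 for S100A8 and -1.50 for S100A9. With 1 sample a group and no pool holding both lines, these differences were not tested.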

How the results depend on the processing

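Equal state makeup here means the same state shares in every group, those of all 13719 cells. Of 5 members at least 2-fold higher with JQ1 in shCON tumors, 2 stayed so with equal state makeup. Without cluster 9 cells, an alternative chosen after seeing the data, 4 stayed so. Leaving out either pool gave 5. In shCD9 tumors the count of 0 became 2 without the 1% of cells with most of the gene and 2 without unassigned cells. Between vehicle groups the count of 3 became 5 without the top 1% of cells and 0 with equal state makeup, and ran from 1 (without pool 2) to 4 on leaving out a pool. Between JQ1 groups the count of 4 became 2 when every cell weighed the same, 0 with equal state makeup and 0 without cluster 9 cells, and 3 to 4 on leaving out a pool. Single log2 ratios changed sign only in shCD9 tumors, JQ1 against vehicle: S100A12 from -0.92 to 0.24 on leaving out a pool (0.24 without pool 1) and at 0.36 with equal state makeup, S100A7A from -0.74 to 0.58 on leaving out a pool (0.58 without pool 2), at 0.028 with cells weighed the same and 0.64 with equal state makeup, and S100A7 at 0.084 with equal state makeup. Over all settings the ratios ran from 0.60 to 3.56 in shCON and from -1.28 to 0.64 in shCD9 tumors. The cause was not tested, apart from the cells each setting removes or reweights. JQ1 and vehicle cells share pools, and their ratios inside each pool are those given on leaving out the other pool. Between the lines no paired analysis was possible because no pool held both. Depth limits S100A12 and S100A7A, which had 860 and 2302 UMIs in all cells.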
